A study of Sus scrofa with 48 samples.

Results

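UBE2V1, TMEM189, CEBPB and PTPN1 are neighbouring genes on pig chromosome 17, and their liver mRNA levels were described in 48 pigs of 2 lines selected in opposite directions on residual feed intake (RFI), the feed eaten beyond the amount predicted from growth and fatness. The 4 genes were chosen because at least 1 probe of each differed between the lines, so the line differences of these genes are given as a description and were not tested. A probe was taken when its gene name or its transcript accession led to one of the 4 symbols. This gave 11 probes of the 60305 on the array, namely 2 for UBE2V1, 2 for TMEM189, 2 for CEBPB and 5 for PTPN1, and all 11 were among the 45236 probes tested.

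The pigs were purebred Large White barrows of lines divergently selected over 8 generations. In each line, 12 pigs received a high-fat, high-fiber diet (HF) and 12 a low-fat, low-fiber diet (LF) from 74 days of age, both offered ad libitum. The groups were thus low RFI (RFIneg) with HF, low RFI with LF, high RFI (RFIpl) with HF and high RFI with LF. Livers were taken after a meal, and each pig gave 1 single-colour array. All pigs of a line share their selection history, so selection and drift within a line cannot be told apart.

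The array median intensity ranged from 53.04 to 126 and the share of probes well above background from 65.8% to 77.2%. Each of the 6 slides held 2 pigs of every group, and each of the 2 scan days held 6. The number of arrays limits the precision. Of the 9 hepatocyte markers tested, 7 were higher in low RFI pigs, against 5901 of all 11139 genes. The 1 marker past the study's cut-offs between the lines was APOA1, higher by 0.15 in low RFI pigs (log2), and 6.95% of all genes passed. The mean level of the 9 markers lay between 9.82 and 10.46 on the log2 scale in all pigs, where 0 is the array median. A change in the share of a cell type and a change in mRNA per cell cannot be told apart in whole liver.

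UBE2V1 encodes a ubiquitin-conjugating enzyme variant without catalytic activity of its own. It pairs with UBE2N to build ubiquitin chains linked through lysine 63, which serve signalling through TRAF6 rather than degradation. TMEM189 (now also PEDS1) is the desaturase that makes the vinyl ether bond of plasmalogens, and it can be spliced to UBE2V1 in a read-through transcript. CEBPB is a leucine zipper transcription factor of acute-phase and gluconeogenic genes in liver. PTPN1 (PTP1B) is a tyrosine phosphatase that acts on the insulin receptor and on JAK2. In the pig reference annotation (Sscrofa11.1), these genes follow in the order UBE2V1, TMEM189, CEBPB and PTPN1 on chromosome 17. The genes listed between them were all long non-coding RNAs, with 2 between UBE2V1 and TMEM189, 1 between TMEM189 and CEBPB and 3 between CEBPB and PTPN1, and none had a probe here. The arrays name no genome build, so positions are not given.

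Probe sequences decide how far 2 probes of a gene count as separate measurements. The UBE2V1 probes A_72_P392348 and O11517 had the same 60 bases, so they are repeat spots of 1 sequence, whose first 30 bases are shown once.
UBE2V1, both probes: gtaaagtttaacataacagtattccataag
The TMEM189 probes overlapped over 48 bases and differed at 1 of them, shown in capitals within 30 shared positions.
TMEM189 O2163: cactggttttttcattttctttcattttTt
TMEM189 A_72_P041326: cactggttttttcattttctttcattttCt
The CEBPB and PTPN1 probes shared no run of 12 bases with each other or with other members. The CEBPB probe with the higher mean (listed start 360 of its transcript) and the PTPN1 probes that went against the other PTPN1 probes are shown whole, in lower case since no part of them is singled out.
CEBPB A_72_P399493: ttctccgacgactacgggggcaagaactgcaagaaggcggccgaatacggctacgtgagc
PTPN1 A_72_P131831: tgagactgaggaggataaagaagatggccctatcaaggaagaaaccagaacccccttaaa
PTPN1 O7924: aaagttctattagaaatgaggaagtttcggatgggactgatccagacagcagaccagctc
For A_72_P131831 the listed start was 1178, against 2083 for A_72_P192882 and 2377 for A_72_P157406 on the same transcript.

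UBE2V1 and TMEM189, at one end of the block, had higher levels in low RFI pigs, and CEBPB and 3 of the 5 PTPN1 probes were lower there. All differences were small, with a fold-change (FC) of 1.23 at most, and the lines overlapped for every probe. Of the 11 probes, 6 passed the study's cut-offs (P under 0.01 and FC over 1.1) between the lines and 3 passed a Benjamini-Hochberg adjusted P (P-BH) under 5%. Over all tested probes, the shares were 6.91% and 3.93%. The members were selected on this contrast, so nothing is read from their share.

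For UBE2V1 (A_72_P392348), the level in low RFI pigs was 2.80 at the lowest, 3.07 at the median and 3.17 at the highest. In high RFI pigs, it was 2.55, 2.89 and 3.08. The level of 20 of 24 low RFI pigs was above the high RFI median, and 23 of 24 high RFI pigs were below the low RFI median. The log2 difference (low RFI minus high RFI) was 0.17 ± 0.04 (SE), or a FC of 1.13, and it was positive on 6 of 6 slides. The repeat probe O11517 gave 0.17 ± 0.04, positive on 5 of 6 slides.

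TMEM189 (O2163, its brighter probe) ranged from 2.39 to 3.06 with a median of 2.82 in low RFI pigs, and from 2.27 to 3.28 with a median of 2.65 in high RFI pigs. The highest pig of all belonged to the high RFI line, although 21 of 24 low RFI pigs were above the high RFI median. The log2 difference was 0.18 ± 0.06 for O2163 and 0.26 ± 0.07 for A_72_P041326. For O2163, it was 0.26 on the first scan day and 0.10 on the second. It was positive on 5 of 6 slides for O2163 and on 6 of 6 for A_72_P041326.

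A probe named TMEM189-UBE2V1 after the read-through transcript (A_72_P242192) lies outside the rule that chose the members. It ranged from 3.40 to 3.90 in low RFI pigs and from 3.33 to 4.01 in high RFI pigs, with a median of 3.65 in both. Its log2 difference was -0.01 (95% confidence interval -0.11 to 0.09).

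CEBPB (A_72_P399493) ranged from -2.39 to -1.21 with a median of -1.89 in low RFI pigs, and from -2.52 to -0.80 with a median of -1.53 in high RFI pigs. The lowest pig of all was a high RFI pig, while 18 of 24 low RFI pigs were below the high RFI median. The log2 difference was -0.29 ± 0.11, or a FC of 1.23, and it was negative on 6 of 6 slides, with -0.42 on the first scan day and -0.17 on the second. The other CEBPB probe, O11964, gave -0.22 ± 0.10, again negative on 6 of 6 slides. Both were detected above background on each of the 48 arrays but were dim, with the mean of A_72_P399493 at the 29.9th percentile of tested probes. With a normexp background correction, the difference of A_72_P399493 was -0.16. The study also measured CEBPB by qPCR in the liver, as a technical check on the RNA used for the arrays. It reports a lower level in low RFI pigs and gives no P value for it. This is a second measurement of the same pigs.

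The 5 PTPN1 probes did not go the same way. The brightest, A_72_P437044, ranged from 0.66 to 1.53 in low RFI pigs (median 1.12) and from 0.87 to 1.48 in high RFI pigs (median 1.18). Its log2 difference was -0.10 ± 0.06, negative on 4 of 6 slides. A_72_P157406 gave -0.18 ± 0.06, the only PTPN1 probe past the study's cut-offs, and A_72_P192882 gave -0.07 ± 0.06. Both were negative on 6 of 6 slides. The remaining 2 were higher in low RFI pigs, on 5 of 6 slides each. The difference was 0.18 ± 0.14 for A_72_P131831 and 0.21 ± 0.12 for O7924, whose signal was well above background on 40 of 48 arrays. A_72_P131831 reached -0.32 in 1 low RFI pig and -0.64 in 1 high RFI pig, far above its medians of -2.08 and -2.17. Averaging the 5 probes gave a PTPN1 difference of 0.009, so the sign depended on which probe stood for the gene.

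**Figure D1:**
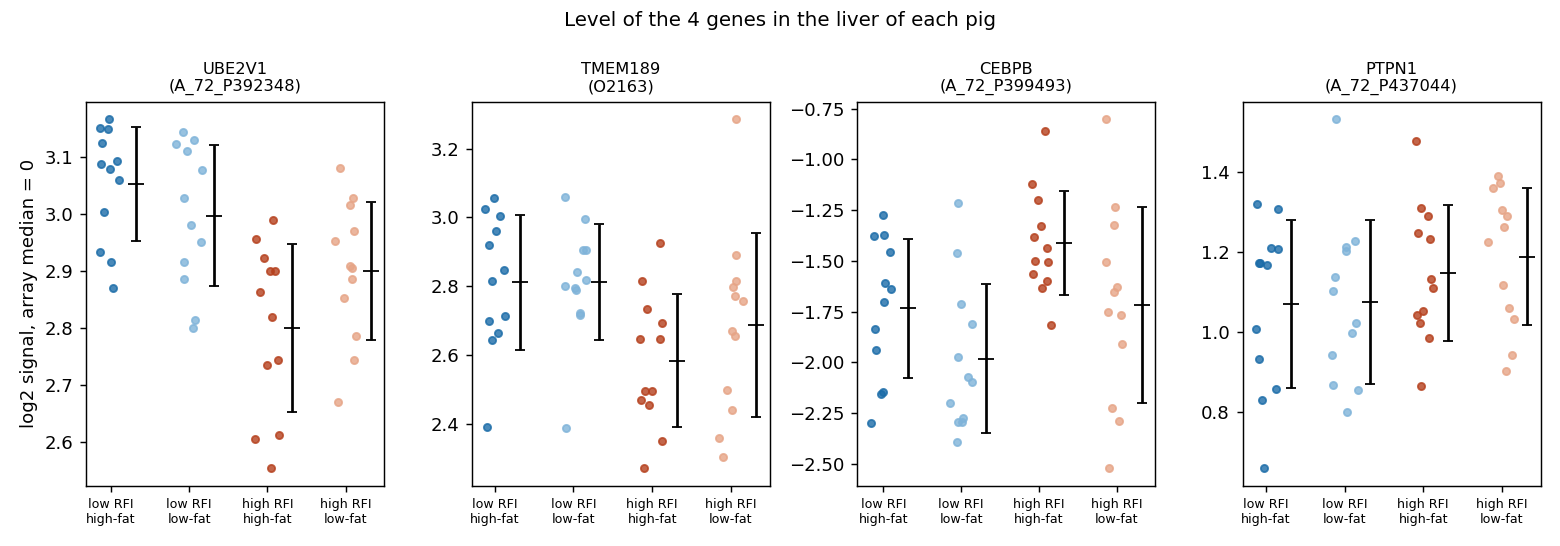
Level of each gene by line and diet, for its probe of highest mean, on the log2 scale with the array median at 0; each point is 1 pig (12 per group) and the black bar is the mean ± SD. The median of UBE2V1 was 3.07 in low RFI pigs against 2.89 in high RFI pigs, that of CEBPB -1.89 against -1.53, and the groups overlapped for all 4 genes.

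The genes flanking the block give the range of line differences nearby. Of the 10 annotated genes on each side, 12 of the 20 had a tested probe, with 24 probes in all. None of the 24 passed the study's cut-offs, against 6.91% of all tested probes, and their log2 differences ranged from -0.13 to 0.16. With so few probes, nothing is read from this count. On the side of UBE2V1, SNAI1, a transcription factor of epithelial to mesenchymal transition, gave 0.01 ± 0.10, and the ubiquitin ligase RNF114 gave -0.08 ± 0.05. On the side of PTPN1, RIPOR3 gave -0.03 ± 0.06, and all 5 probes of DPM1, a subunit of dolichol-phosphate mannose synthase, lay between 0.12 and 0.15. The members were chosen for differing and their neighbours were not, so the contrast between both sets was not tested.

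**Figure D2:**
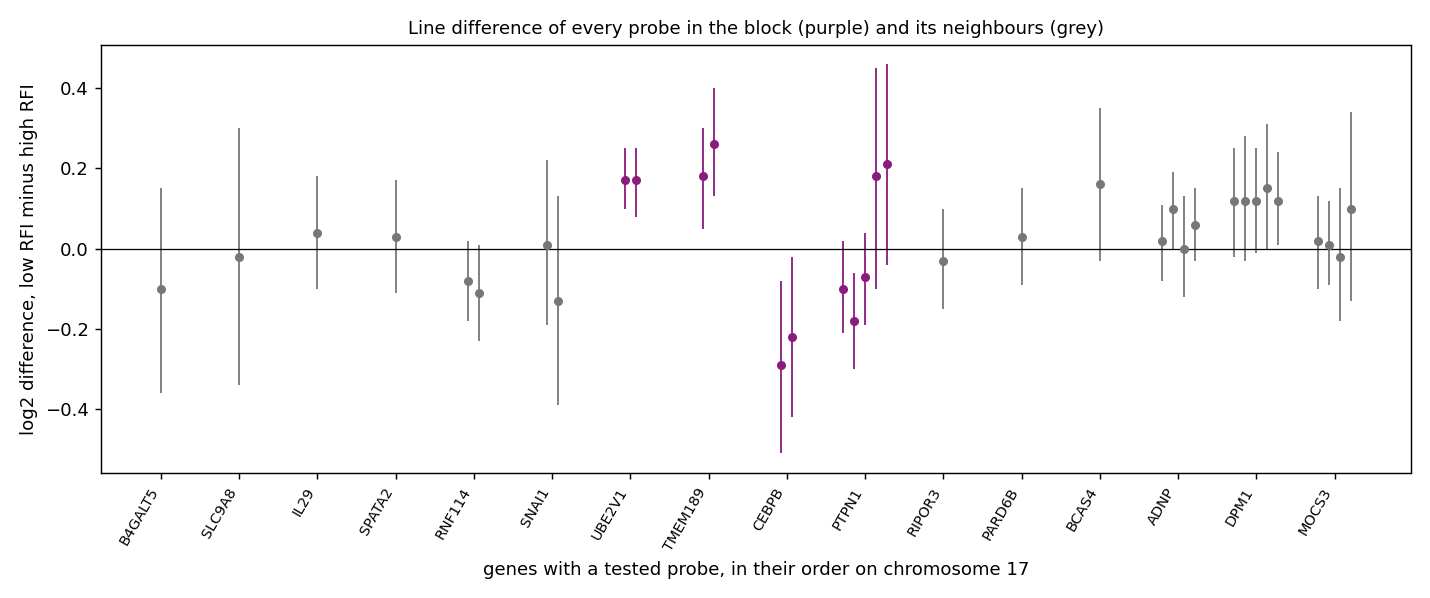
Log2 difference between the lines (low RFI minus high RFI) with its 95% confidence interval for each tested probe, genes being placed in their order on chromosome 17 without scale. UBE2V1 and TMEM189 probes lay between 0.17 and 0.26, CEBPB probes at -0.29 and -0.22, PTPN1 probes on both sides of 0, and the 24 neighbouring probes between -0.13 and 0.16.

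The diet contrast was not used to choose the genes and was tested. No member probe passed P-BH under 5%, a threshold passed by 0.455% of all tested probes. CEBPB had the lowest diet P-BH of the members. Its level (A_72_P399493) ranged from -2.30 to -0.86 with HF (median -1.53) and from -2.52 to -0.80 with LF (median -1.86), and the difference (HF minus LF) was 0.28 ± 0.11 (limma, P = 0.0115, P-BH = 0.213). It was 0.088 with a normexp background correction, 0.141 with the median signal without background subtraction and 0.137 in the deposited table. O11964 gave 0.17 ± 0.10 (limma P-BH = 0.425). UBE2V1 (A_72_P392348) differed by -0.02 between diets with a 95% confidence interval from -0.10 to 0.06, TMEM189 (O2163) by -0.05 (-0.18 to 0.07) and PTPN1 (A_72_P437044) by -0.02 (-0.14 to 0.09).

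The line by diet interaction was not significant for any member probe (limma, P-BH of 1 for all 11), and no probe on the array passed P-BH under 5%, while 1071 (2.37%) had an unadjusted P under 0.05. For UBE2V1 (A_72_P392348), the line difference was 0.25 with HF and 0.10 with LF. The difference between these was 0.16 (limma, P = 0.0507). For CEBPB, the line difference was -0.32 with HF and -0.27 with LF.

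Neighbouring genes might vary together from pig to pig, and this was examined within each line on deviations from the line and diet means. No pair of members was correlated after adjustment over the 12 tests (6 pairs in 2 lines, 24 pigs each). The strongest relation was that of UBE2V1 with CEBPB in low RFI pigs. It was negative (Pearson r = -0.49, permutation P = 0.0186, adjusted P = 0.223; Spearman rho = -0.51, permutation P = 0.0134, adjusted P = 0.161). Without the 2 pigs of most extreme UBE2V1 level, r was -0.36. It was -0.47 with HF, -0.50 with LF, -0.53 on the first scan day and -0.46 on the second. In high RFI pigs, r was -0.08 (permutation P = 0.717, adjusted P = 0.77), and -0.30 once slide means were removed. The other CEBPB probe gave weaker values, since over the 4 probe pairs r ranged from -0.49 to 0.09 in low RFI pigs.

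UBE2V1 and TMEM189, the genes that can be joined in 1 transcript, had r = 0.39 in low RFI pigs (permutation P = 0.0615, adjusted P = 0.229; rho = 0.27, permutation P = 0.199, adjusted P = 0.578) and -0.15 in high RFI pigs (permutation P = 0.487, adjusted P = 0.731; rho = -0.25, permutation P = 0.241, adjusted P = 0.578). In low RFI pigs, it was 0.06 with HF and 0.71 with LF, and 0.02 on the first scan day and 0.57 on the second. The difference between the lines, 0.54, was not significant (permutation of line labels, P = 0.0702, adjusted over 6 pairs P = 0.269). It also depended on the probes. Over the 4 probe pairs, r ranged from 0.33 to 0.47 in low RFI pigs. In high RFI pigs, it ranged from -0.15 to 0.28, with 3 of 4 positive. In a mixture model, A_72_P392348 in low RFI pigs was described by 2 clusters of 9 and 15 pigs, with a gain in the Bayesian information criterion of only 0.3 over 1 cluster, while the repeat probe O11517 gave 1 cluster in these pigs and 3 in high RFI pigs. Within the 2 clusters, r with TMEM189 was 0.29 and 0.08, and r with CEBPB was -0.23 and -0.24. The clusters were cut on the UBE2V1 level, which narrows its range, so these values say nothing about the pooled r.

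TMEM189 and CEBPB had r = -0.38 in low RFI pigs (permutation P = 0.0764, adjusted P = 0.229), which was -0.18 without the 2 pigs of most extreme TMEM189 level, and -0.07 in high RFI pigs. TMEM189 and PTPN1 had r = 0.39 in low RFI pigs (permutation P = 0.0697, adjusted P = 0.229), which was 0.18 without the 2 pigs of most extreme TMEM189 level and -0.14 on the first scan day against 0.59 on the second. CEBPB and PTPN1 had r = 0.22 in low RFI pigs (permutation P = 0.315) and 0.25 in high RFI pigs (permutation P = 0.259), with adjusted P of 0.629 and 0.621. Without the 2 pigs of most extreme CEBPB level, r was 0.31 and -0.03. For this pair of probes, the value in high RFI pigs thus rested on those 2 pigs. Over the 10 probe pairs of CEBPB and PTPN1, r ranged from -0.07 to 0.49 in low RFI pigs (8 positive). In high RFI pigs, it ranged from -0.15 to 0.46 (7 positive). UBE2V1 and PTPN1 had r = 0.09 and 0.16, and 0.02 and 0.04 without the 2 pigs of most extreme UBE2V1 level. For these 4 pairs, Spearman rho lay between -0.37 and 0.32, with adjusted permutation P from 0.521 to 0.891. None of the 6 differences between lines was significant, with adjusted P from 0.269 to 0.931.

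**Figure D3:**
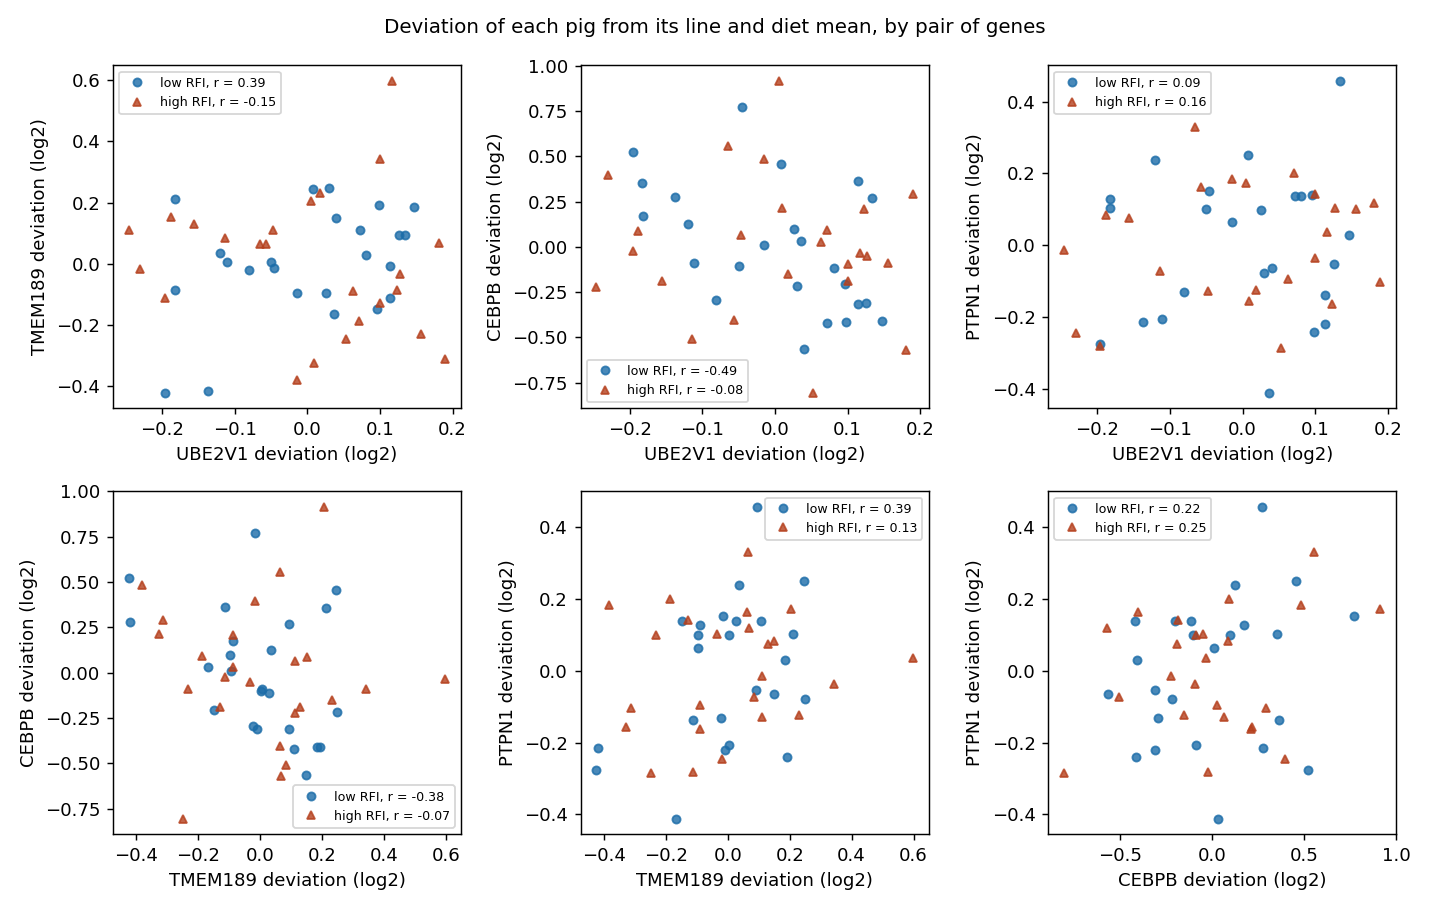
Deviation of each pig from the mean of its line and diet group (log2) for the 6 pairs of genes; circles are low RFI pigs and triangles high RFI pigs, 24 each, with Pearson r in the legends. The negative relation of UBE2V1 and CEBPB in low RFI pigs had r = -0.49, and the others lay between -0.38 and 0.39.

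Probes of 1 gene give the agreement that the arrays allowed. The repeat UBE2V1 probes had r = 0.89 in low RFI and 0.83 in high RFI pigs, and the overlapping TMEM189 probes 0.96 and 0.93. The CEBPB probes, with separate sequences, had 0.62 and 0.53. For PTPN1, A_72_P437044, A_72_P157406 and A_72_P192882 had values from 0.48 to 0.66 among themselves in both lines. A_72_P131831 had values from -0.17 to 0.20 with these 3 probes. O7924 had -0.16 to -0.07 with them in low RFI pigs and 0.45 to 0.64 in high RFI pigs. The read-through probe had r = -0.17 with UBE2V1 (A_72_P392348) in low RFI pigs and 0.63 in high RFI pigs, and with the repeat UBE2V1 probe it had -0.21 and 0.31. This pair was picked after its values were seen and was not tested.

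**Figure D4:**
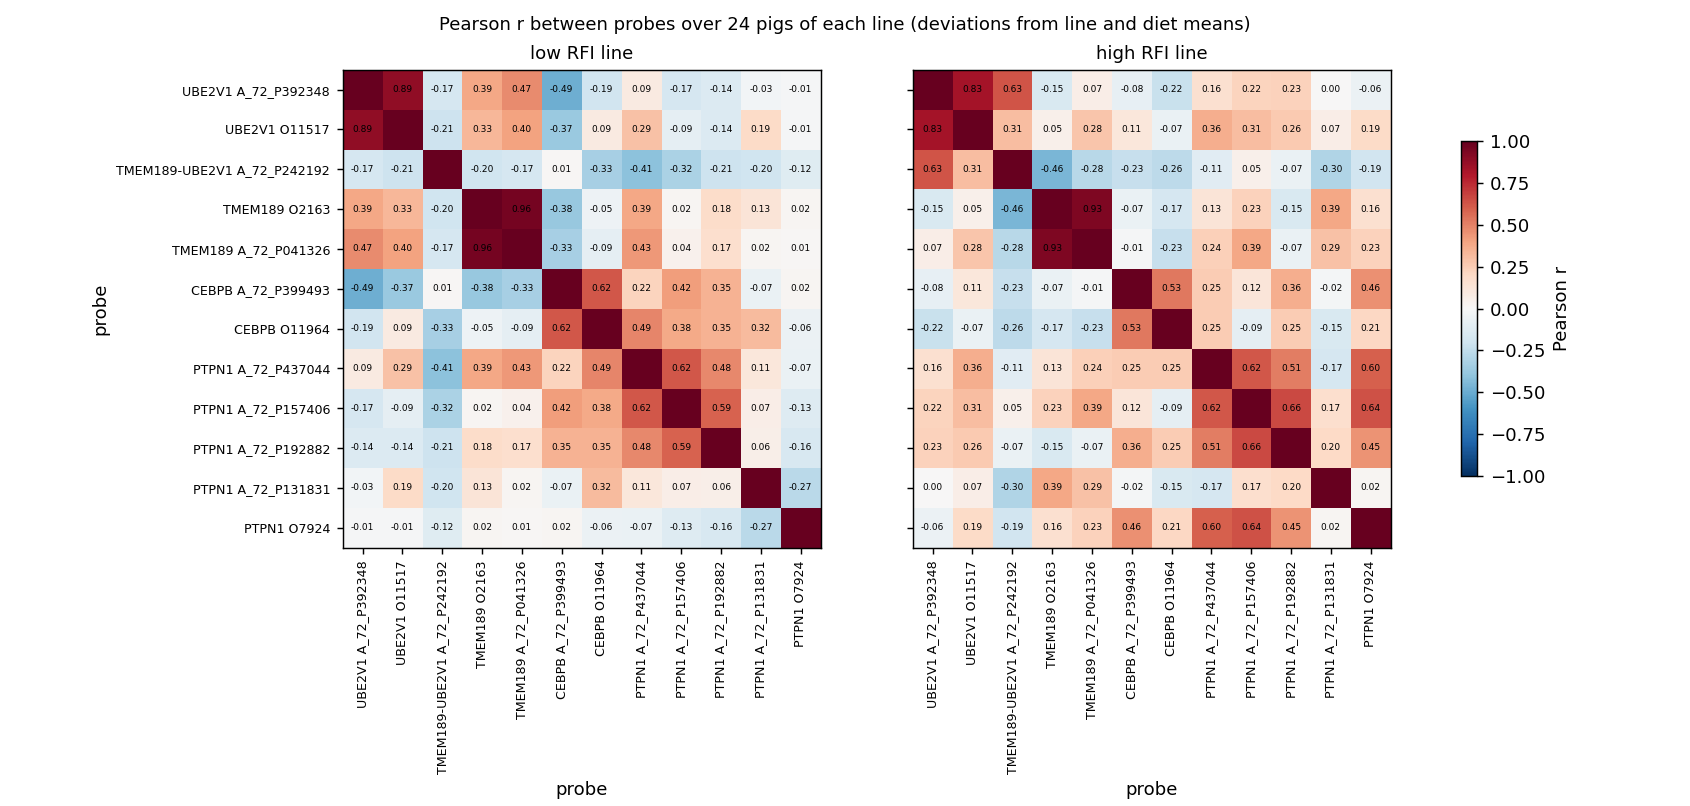
Pearson r between the 11 member probes and the read-through probe (A_72_P242192) over 24 pigs of each line, on deviations from line and diet means; red is positive and blue negative. Probes of UBE2V1 (0.89 and 0.83), of TMEM189 (0.96 and 0.93) and of CEBPB (0.62 and 0.53) went together. PTPN1 A_72_P131831 stood apart from the other PTPN1 probes in both lines, and O7924 did so in low RFI pigs.

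Among all other probes, few varied with UBE2V1, TMEM189 or CEBPB within groups (limma, 48 pigs, P-BH under 5%). The count was 0 of 45234 for UBE2V1, 79 (0.175%) for TMEM189 and 4 (0.00884%) for CEBPB. For PTPN1 (A_72_P437044), it was 1339 of 45231 (2.96%), with 554 varying with it and 785 against it, and 422 when slide was included in the model.

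The genes most like PTPN1 probe A_72_P437044 included the antigen presentation genes SLA-1 (r = 0.62, limma P-BH = 0.00793) and B2M (r = 0.60, limma P-BH = 0.00929). They also included SLAMF6, a receptor of lymphoid cells (r = 0.64, limma P-BH = 0.00814), and AGBL5 (r = 0.67, limma P-BH = 0.00452). Those most opposed to this probe were PXDC1 (r = -0.66), SLC35A3 (r = -0.65) and CCNY (r = -0.64). Slide was not in this model, and the other PTPN1 probes were not compared with these genes. Of the 10 T and NK cell markers tested, 0 passed P-BH under 5% with PTPN1, and their mean level had r = 0.31 with it. That mean level ranged from -1.61 to -0.04 in low RFI pigs and from -1.34 to -0.16 in high RFI pigs. The part of these cells in the PTPN1 values was not tested.

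The genes most like TMEM189 were PTPN18 (r = 0.63, P-BH = 0.0285), SPRN (r = 0.61), the protease inhibitor A2M (r = 0.60, P-BH = 0.0315), GPC2 and TFEB (both r = 0.60). SMPD3, a neutral sphingomyelinase, was the most opposed (r = -0.65, P-BH = 0.0142), followed by COPS2 (r = -0.62). For UBE2V1, they included ZZEF1 (r = 0.59, limma P-BH = 0.099), CHD8 (r = 0.58) and, in the opposite direction, the thyroid hormone receptor THRB (r = -0.52). For CEBPB, they were SLC25A23 (r = 0.58, limma P-BH = 0.151), SLC30A8 (r = 0.57) and GPR84, a receptor of myeloid cells (r = 0.53), against ZKSCAN1 (r = -0.55) and UBE2Q2 (r = -0.54). None of these passed the adjustment for UBE2V1 and CEBPB.

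The r of acute-phase genes served by C/EBPB is given with TMEM189 and with CEBPB by counts and medians, and the difference between both was not tested. Of the 15 genes, 2 passed P-BH under 5% with TMEM189, ITIH4 (r = 0.59, P-BH = 0.034) and ceruloplasmin (CP, r = 0.57, P-BH = 0.0428), against 0.144% of all genes. Their median r was 0.47 with TMEM189 and 0.05 with CEBPB, and over all genes it was 0.00 and -0.04. With TMEM189, 14 of 15 had a positive r, the exception being HAMP (r = -0.04), which encodes hepcidin. None passed with CEBPB, the values ranging from -0.14 to 0.17. The 9 hepatocyte markers had a median r of 0.29 with TMEM189 and -0.16 with CEBPB, and 1 of them, CYP2E1, named after its value was seen, passed with TMEM189 (r = 0.56, P-BH = 0.0437). Their part in the values of the acute-phase genes was not tested. Of the 9 genes of the IL6 and STAT3 chain, 0 passed with TMEM189, with a median r of 0.34.

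Other genes of the pathways of the 4 members gave few line differences. Of the 101 list genes tested (1 probe per gene, the one of highest mean), 4 were over-expressed and 3 under-expressed in low RFI pigs at the study's cut-offs. That is 6.93%, against 6.95% of all genes. The lists were drawn up with earlier results of these data known. The study itself names TRAF6, JAK2, TRAF3, BCL3 and GRB14 among its differentially expressed genes, so these calls are not independent of it.

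In the C/EBP family and its partners, ATF3, a stress-induced transcription factor, was the 1 gene of 11 that passed. It ranged from -4.77 to -0.54 in low RFI and from -3.80 to 0.28 in high RFI pigs, with a difference of -0.76 ± 0.27 (limma P-BH = 0.105) and a signal well above background in 19 and 22 pigs. In the IL6 and STAT3 chain, BCL3, a nuclear IkB protein, was under-expressed by 0.33 on the log2 scale (from 2.79 to 3.86 in low RFI and from 2.55 to 4.80 in high RFI pigs, limma P-BH = 0.125), 1 gene of 9. Neither held at P-BH under 5%, which 3.92% of all genes passed. Acute-phase genes gave no call (0 of 15, median -0.051 against 0.006 for all genes), though SAA3 had -0.71 ± 0.31 (limma P-BH = 0.242) and LBP -0.52 ± 0.24 (limma P-BH = 0.289). The gluconeogenic and amino acid genes gave 0 of 10, with a median of 0.03, TDO2 at -0.22 ± 0.10, G6PC at 0.35 ± 0.20 and PCK1 at -0.38 ± 0.28.

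Among the 24 genes facing PTPN1 in insulin, leptin and JAK signalling, JAK2, a kinase that PTPN1 dephosphorylates, was over-expressed in low RFI pigs. It ranged from 0.02 to 0.53 in low RFI and from -0.08 to 0.40 in high RFI pigs, so that the lines overlapped, and the difference was 0.15 ± 0.04 (O7926, limma P-BH = 0.0307). A second JAK2 probe gave 0.25 (limma P-BH = 0.00936) and another -0.13 (limma P-BH = 0.224). GRB14, an adaptor that inhibits the insulin receptor, passed the study's cut-offs only (0.15 ± 0.05, limma P-BH = 0.13). INSR gave 0.05 and LEPR -0.26 without passing. The list had a median of 0.033, with 17 genes of positive and 7 of negative sign.

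In the lysine-63 ubiquitin list around UBE2V1, 3 of 20 genes passed P-BH under 5%, against 3.92% of all genes. All 3 were TNF receptor-associated factors, with 2 higher and 1 lower in low RFI pigs. TRAF6, the ligase that works with the UBE2N and UBE2V1 pair, ranged around a median of 2.69 up to 3.05 in low RFI pigs and from 0.50 to 3.06 in high RFI pigs (median 1.90). Low RFI pigs thus lay within the upper part of the high RFI range, which was wider (SD 0.89 against 0.31), the difference being 0.97 ± 0.19 (A_72_P223847, limma P-BH = 0.000763). The other TRAF6 probe, O8523, gave 0.18 (limma P-BH = 0.248). TRAF5 was 0.76 ± 0.18 higher in low RFI pigs (limma P-BH = 0.00714), its signal being well above background in 22 low RFI and 15 high RFI pigs. TRAF3 was lower in low RFI pigs, with a difference of -0.19 ± 0.05 (A_72_P148336, limma P-BH = 0.0239), and all 4 of its probes were negative, from -0.37 to -0.11. The list median was -0.01. The 12 genes of plasmalogen and ether lipid synthesis around TMEM189 gave 0 calls at the study's cut-offs, which 6.95% of all genes passed. Their median was 0.012.

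**Figure D5:**
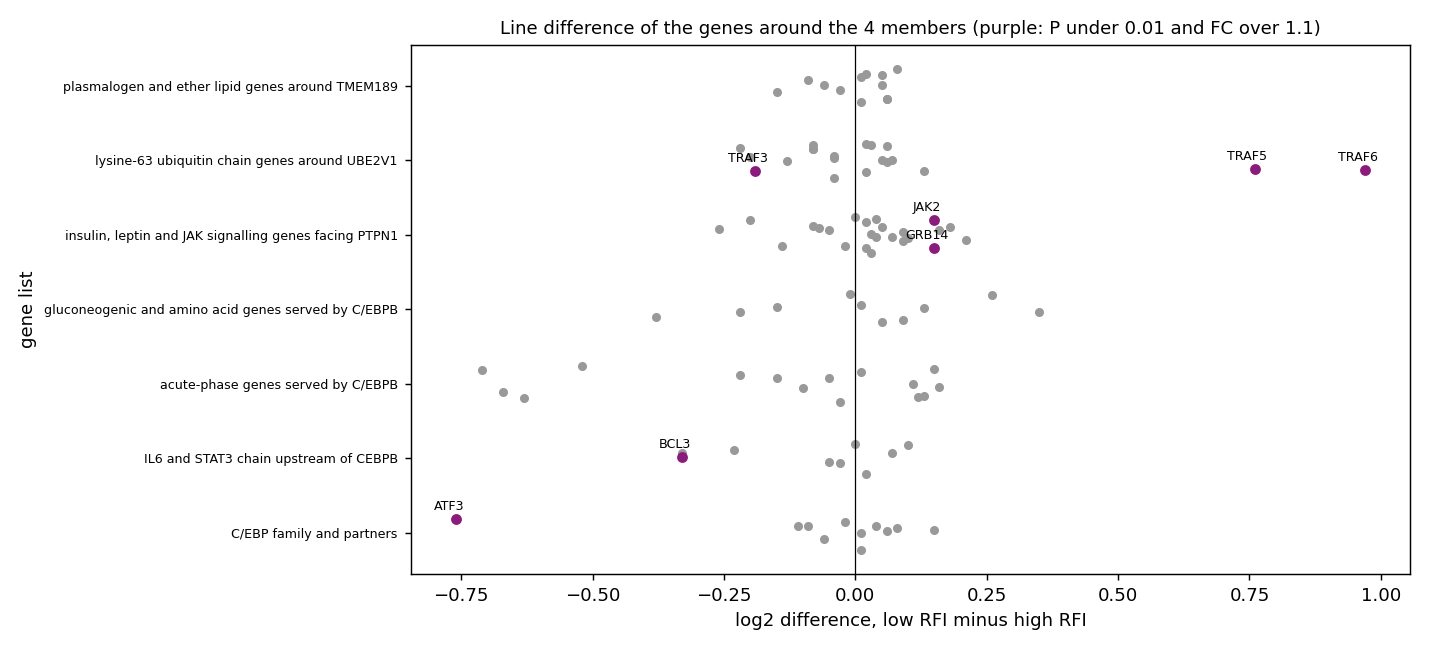
Log2 difference between the lines (low RFI minus high RFI) for each gene of the 7 pathway lists, 1 point per gene (probe of highest mean); purple points passed P under 0.01 and FC over 1.1. TRAF6 (0.97) and TRAF5 (0.76) lay farthest to the right, ATF3 (-0.76) farthest to the left, and most genes lay near 0.

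Markers of other liver cells were read beside CEBPB and PTPN1, which blood and resident immune cells also express. Of the 12 macrophage markers, 9 were lower in low RFI pigs, against 5238 of all 11139 genes. The study's cut-offs were passed by 0 of the 12 markers, with a median of -0.181. Their mean level ranged from 2.60 to 3.73 in low RFI and from 2.92 to 3.81 in high RFI pigs, and it had r = 0.03 with CEBPB and 0.30 with PTPN1 within groups. Of the 5 neutrophil markers, 1 passed, CXCR2 (-0.20 ± 0.07, limma P-BH = 0.11), against 6.95% of all genes. S100A9 gave -0.12, S100A8 -0.10, LTF 0.03 and S100A12 -0.03. The mean level of the 5 neutrophil markers had r = 0.02 with CEBPB. The part of these cells in the line differences was not tested.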

How the data were processed

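Liver RNA of 48 pigs was labeled with Cy3 and hybridized to custom porcine arrays. The authors extracted gProcessedSignal, a background-subtracted intensity, with Feature Extraction 10.7.3.1 (per the file headers). The deposited log2 table holds their filtered, median-centred values and served as an alternative. No columns of other series were present. The 483 outlier spots were dropped, repeat spots averaged, and probes flagged as well above background kept where this held on 12 arrays or more. Log2 values were centred on each array's median. Each probe was fitted with limma 3.58.1 (R 4.3.3) on line, diet and interaction, P values being adjusted by Benjamini-Hochberg over all tested probes. Scripts were tested on simulated data. The probe of highest mean stood for a gene. Correlations used 100000 two-sided permutations within diet (10000 under the alternatives), with clusters checked by mclust 6.1.1. The named genes were the members, 10 neighbours each side, the 5 most and 5 least correlated genes of each member, and up to 4 genes per list with the smallest line P. Not every gene so named is reported here. The members and gene lists were chosen with earlier results of these data known. UBE2V1, TMEM189 and CEBPB also figure in the study's own gene selections, as do the list genes TRAF6, JAK2, TRAF3, BCL3 and GRB14. Replicate numbers are pig numbers and pair no samples. The labels name separate pigs as replicates. Gene names came from a RefSeq accession for 6966 probes, a gene number for 2242 and the scanner files for 17004, and 34093 probes had none.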

Additional observations from a re-analysis of the deposited data

How the results depend on the processing

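No paired analysis was possible because the replicate numbers of the labels name single pigs and are not shared between groups. The line differences of UBE2V1 (0.171 to 0.193), TMEM189 (0.168 to 0.219) and CEBPB (-0.294 to -0.161) kept their sign over 11 alternatives, and the PTPN1 difference turned to 0.009 only with the mean over its probes. Some of these alternatives could not change a difference. Slide or scan day as a block left it as it was because the groups were balanced over both. Using the ordinary variance of each probe affected only the SE and P. The members were chosen on this contrast, so the kept sign is a description. No diet effect or interaction passed P-BH under 5% under any of these 11. Values near 0 changed sign: with normexp, the UBE2V1 diet effect (0.005), the CEBPB interaction (0.018) and the PTPN1 interaction (-0.008); the CEBPB interaction with the median signal (0.012) and the deposited table (0.019); and the PTPN1 interaction with the probe mean (-0.023). In low RFI pigs, the UBE2V1 and CEBPB correlation passed with normexp (r = -0.604, permutation adjusted P = 0.0312), and that of UBE2V1 and TMEM189 passed with LF alone (r = 0.71, permutation adjusted P = 0.0492). With HF alone, UBE2V1 and TMEM189 had r = 0.06 in these pigs. Each adjustment covered only the 12 tests of its own setting, while 180 correlations were run under the alternatives. In the high RFI line, TMEM189 and CEBPB turned positive with normexp (0.054), the median signal (0.017), the deposited table (0.077) and scan day 1 alone (0.02). There, TMEM189 and PTPN1 came to 0 with normexp and -0.068 on scan day 1, UBE2V1 and TMEM189 to 0.069 with probe means, 0.001 on scan day 2 and 0.067 with LF alone, CEBPB and PTPN1 to -0.193 on scan day 2, and with HF alone UBE2V1 and CEBPB to 0.164 and UBE2V1 and PTPN1 to -0.036. In the low RFI line, TMEM189 and PTPN1 came to -0.144 on scan day 1, and UBE2V1 and PTPN1 to -0.07 on scan day 2 and -0.225 with HF alone. The list genes lower in low RFI pigs numbered 1 with normexp and 6 with the probe of smallest P, against 3. Probes varying with PTPN1 numbered 422 with slide as a block and 850 without the first principal component, against 1339. The cause was not tested. Dim signal limits CEBPB and PTPN1 O7924.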
